A study of Arabidopsis thaliana with 6 samples.

Results

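Cytochrome P450 genes were followed in whole Arabidopsis thaliana seedlings that carry the allele actin2-5 of the actin gene ACT2, called wavy in some of the labels, and in wild-type seedlings. They were taken as the probe sets that stand for 1 gene and whose symbol is CYP followed by a family number of 51 or higher, with cyclophilins, which share the letters, left out. Of 27 probe sets with such a symbol, 2 were cyclophilins (CYP71 and CYP59) and 1 reads 2 genes together (CYP71B19 and CYP71B20), which left 24 P450 probe sets, 1 per gene, of 22746 tested. RefSeq lists 237 genes under a P450 symbol, so these 24 are a small and uneven sample of the superfamily: 19 belong to the subfamily CYP71B, which has 36 genes in RefSeq, and families 51, 78, 79, 84 and 718 have 1 member each. The other P450 genes were not analysed here, including those of brassinosteroid synthesis. They may still lie on the array, since 8730 tested probe sets have no gene name in the annotation used.

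The 3 actin2-5 samples and the 3 wild-type samples were whole plants, 8 days old, raised on half-strength Murashige and Skoog medium, and each was read on 1 array. The wild type is the ecotype Columbia, and the labels of the mutant give no ecotype. The labels call the samples biological replicates and do not say how many seedlings each one held. The study concerns actin and the hormones auxin and brassinosteroid, and the comparison asks how transcripts differ between the genotypes. No probe set here carries the name ACT2, and so the mutated gene gave no check of the labels. In whole seedlings, fewer cells of a type and less RNA per cell cannot be told apart.

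Cytochrome P450 enzymes hold a haem group and use oxygen and electrons from NADPH, passed on by a reductase, to insert an oxygen atom into small molecules. Plants use them to make and to remove hormones, to make sterols, pigments and the precursors of cutin and lignin, and above all to build defence compounds. Families are numbered by sequence likeness. Family 71 is one of the large plant families, many of its members arose by duplication and stand side by side, and most CYP71B enzymes have no well-established substrate.

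No P450 probe set passed the test. With limma and Benjamini-Hochberg adjustment over all probe sets, 0 of the 24 had an adjusted p under 0.05, against 3.3% of all tested probe sets (2.18% higher and 1.11% lower in actin2-5). At an unadjusted p under 0.05 there were 5 of 24 (20.8%), against 15.3% of all probe sets. The values of both groups did not overlap in 6 of 24 (25%), 4 with actin2-5 higher and 2 with actin2-5 lower, against 19.2% of all probe sets. By direction that was 16.7% of the members with actin2-5 higher and 8.33% with actin2-5 lower, against 8.35% and 10.8% of all probe sets. These shares rest on few genes, and their difference from the background was not tested. By point value 9 members were higher in actin2-5 and 15 lower. Their median log2 change, actin2-5 minus wild type, was -0.018, and that of all tested probe sets was -0.027. The median size of the change was 0.080 for the members and 0.093 for all probe sets.

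The 95% interval of the change, from limma's fit and not adjusted for the number of genes, stayed within a 2-fold change in both directions for all 24 members. It stayed within a 1.5-fold change for 20 of them, and the other 4 were CYP71B22, CYP71B23, CYP71B24 and CYP71B36, all on the higher side. The highest bound was 0.83 for CYP71B23 and the lowest was -0.50 for CYP78A9. Probe sets with a mean under 5 on the log2 scale are dim, and RMA tends to compress differences at low signal. How far this holds for the 10 members in that range was not measured here.

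**Figure D1:**
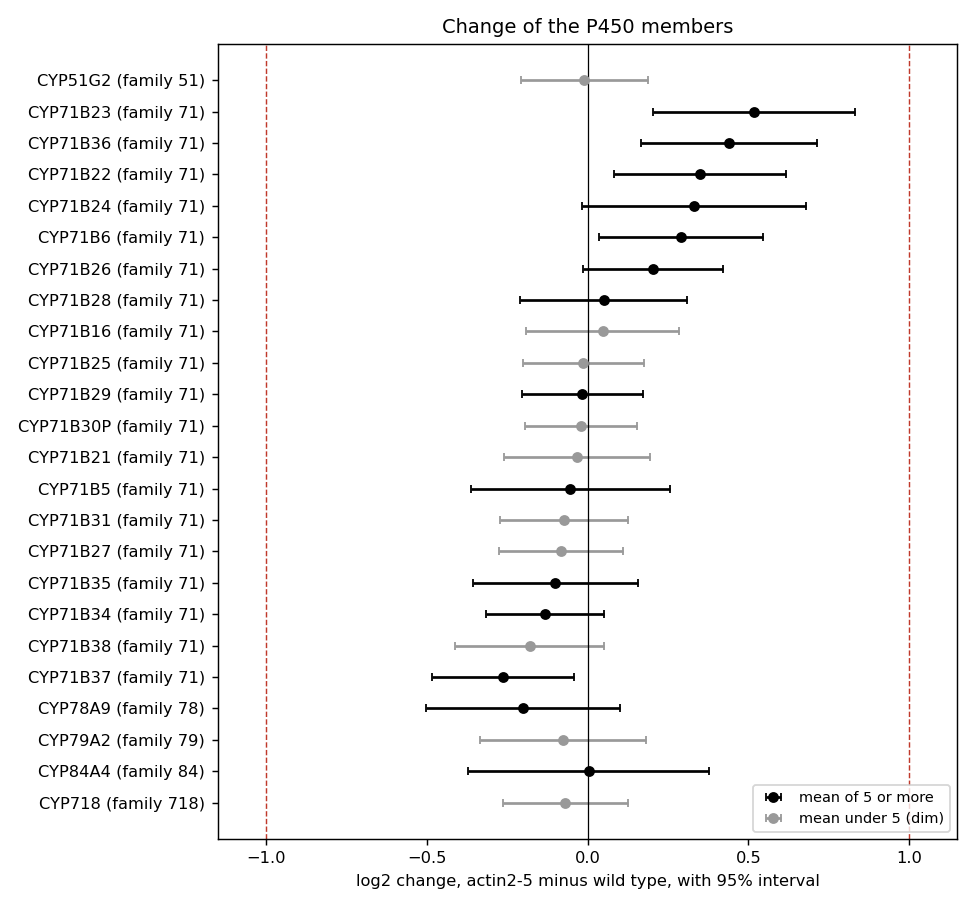
Log2 change, actin2-5 minus wild type, of each of the 24 P450 probe sets (points) with its 95% interval (bars), ordered by family number; grey marks the 10 with a mean under 5, and the dashed lines mark a 2-fold change. No interval reaches a dashed line, and CYP71B23 lies highest at 0.52.

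CYP71B23 had the largest change among the members. It read 8.13, 8.28 and 8.35 on the log2 scale in actin2-5, against 7.61, 7.51 and 8.09 in wild type. The groups did not overlap, but wild-type replicate 3 lay just below actin2-5 replicate 1 and apart from the other wild-type values. Means were 8.25 ± 0.11 for actin2-5 and 7.74 ± 0.31 for wild type (SD, n = 3 each), a log2 difference of 0.52 ± 0.14 (SE; 1.43-fold; limma adjusted p = 0.0885). Without wild-type replicate 3, the wild-type value nearest to actin2-5, the difference was 0.69 and passed (limma adjusted p = 0.00965). Without any other single array it ran from 0.40 to 0.58 and did not pass (limma adjusted p = 0.125 to 0.322).

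CYP71B36 came next. It read 5.6, 5.8 and 5.65 in actin2-5, against 5.17, 5.52 and 5.04 in wild type. All 3 actin2-5 values lay above all 3 wild-type values, with wild-type replicate 2 closest to them. The log2 difference was 0.44 ± 0.12 (SE, n = 3 each; 1.36-fold; limma adjusted p = 0.0965). Without wild-type replicate 2 it was 0.58 and passed (limma adjusted p = 0.0153). Without any other single array it ran from 0.34 to 0.48 and did not pass (limma adjusted p = 0.152 to 0.37).

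CYP71B22 read 6.44, 6.67 and 6.58 in actin2-5, against 6.38, 5.95 and 6.31 in wild type. The groups did not overlap, and wild-type replicate 2 alone was clearly lower than the rest. The log2 difference was 0.35 ± 0.12 (SE, n = 3 each; limma adjusted p = 0.181), and without that replicate it was 0.22.

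CYP71B6, an enzyme that oxidises indole-3-acetonitrile on a route from tryptophan to indole-3-carboxylic acid derivatives, read 10.06, 9.92 and 10.01 in actin2-5, against 9.46, 9.91 and 9.75 in wild type. The groups did not overlap, but actin2-5 replicate 2 and wild-type replicate 2 were almost equal. The log2 difference was 0.29 ± 0.11 (SE, n = 3 each; limma adjusted p = 0.258), and without wild-type replicate 1 it was 0.17.

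Among members with lower values, CYP71B37 read 6.62, 6.80 and 6.92 in actin2-5, against 7.04, 7.14 and 6.95 in wild type. The groups did not overlap, with actin2-5 replicate 3 and wild-type replicate 3 close together. The log2 difference was -0.26 ± 0.10 (SE, n = 3 each; limma adjusted p = 0.23). CYP71B34 read 6.49, 6.63 and 6.53 in actin2-5, against 6.74, 6.67 and 6.64 in wild type, also without overlap. Its log2 difference was small, at -0.13 ± 0.08 (limma adjusted p = 0.501).

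**Figure D2:**
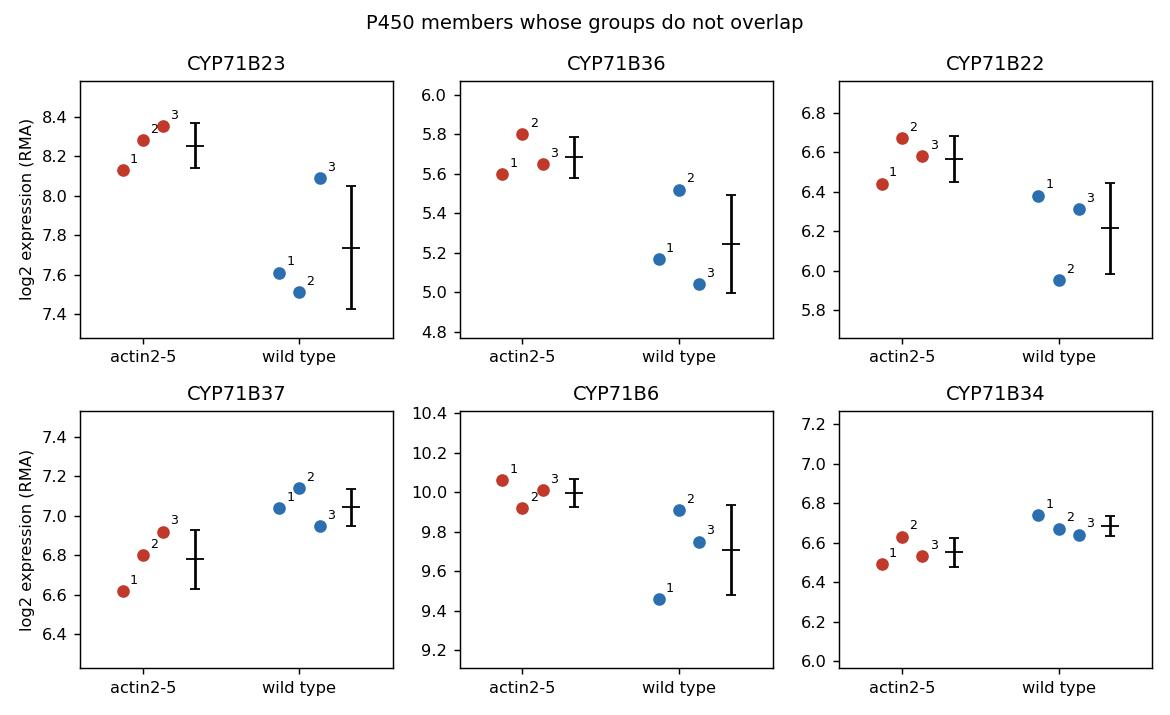
Deposited log2 expression of the 6 P450 members whose groups do not overlap, with actin2-5 in red and wild type in blue, replicate numbers beside the points, and mean ± SD (n = 3) as bars; all panels span the same height on the log2 axis. In CYP71B23, CYP71B36, CYP71B22 and CYP71B6 the wild-type points are spread more widely than the actin2-5 points. Over all tested probe sets, wild-type arrays correlated with each other at 0.994 to 0.995 and actin2-5 arrays at 0.997 to 0.998. Wild-type replicate 2 correlated at 0.994 with each of the other wild-type arrays.

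Position in the genome groups most of the CYP71B members. In the gene order of RefSeq's TAIR10.1 table, 17 of the 24 members fell into 4 runs of neighbours, in which at most 5 genes lie between one member and the next. The run from CYP71B16 to CYP71B24 spans 11 listed genes and holds 5 members, and the run from CYP71B25 to CYP71B37 spans 8 and holds 6. CYP71B27, CYP71B28 and CYP71B29 form another, as do CYP71B5, CYP71B30P and CYP71B31.

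In the run from CYP71B16 to CYP71B24, the members with a mean of at least 5 lay on the higher side. CYP71B22 and CYP71B23, direct neighbours, were at 0.35 and 0.52. CYP71B24 read 5.26, 5.81 and 5.76 in actin2-5, against 5.02, 5.40 and 5.42 in wild type, at 0.33 ± 0.16 with overlapping groups (limma adjusted p = 0.356). Leaving out 1 array gave values of CYP71B24 up to 0.505, when actin2-5 replicate 1 was dropped, and down to 0.20, when wild-type replicate 1 was. The dim members CYP71B16 and CYP71B21 were at 0.05 ± 0.11 and -0.03 ± 0.10. The probe set shared by CYP71B20;CYP71B19, which is no member but lies in the same run, read 6.91, 7.14 and 7.17 in actin2-5, against 6.68, 6.85 and 6.54 in wild type. Its log2 difference was 0.38 ± 0.11 (SE, n = 3 each; limma adjusted p = 0.0963), without overlap. Near-identical copies can share probe signal, and how far the probes of these neighbours tell them apart was not tested.

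In the run from CYP71B25 to CYP71B37, neighbours lay on both sides. CYP71B36 was at 0.44 and CYP71B37, the next gene, at -0.26. CYP71B26 read 9.30, 9.42 and 9.54 in actin2-5, against 9.34, 9.09 and 9.22 in wild type, at 0.20 ± 0.10 (limma adjusted p = 0.367). Here actin2-5 replicate 1 lay below wild-type replicate 1. CYP71B35 was at -0.10 ± 0.11, CYP71B34 at -0.13 and the dim CYP71B25 at -0.01. Whether members of a run differ from each other in their change was not tested.

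**Figure D3:**
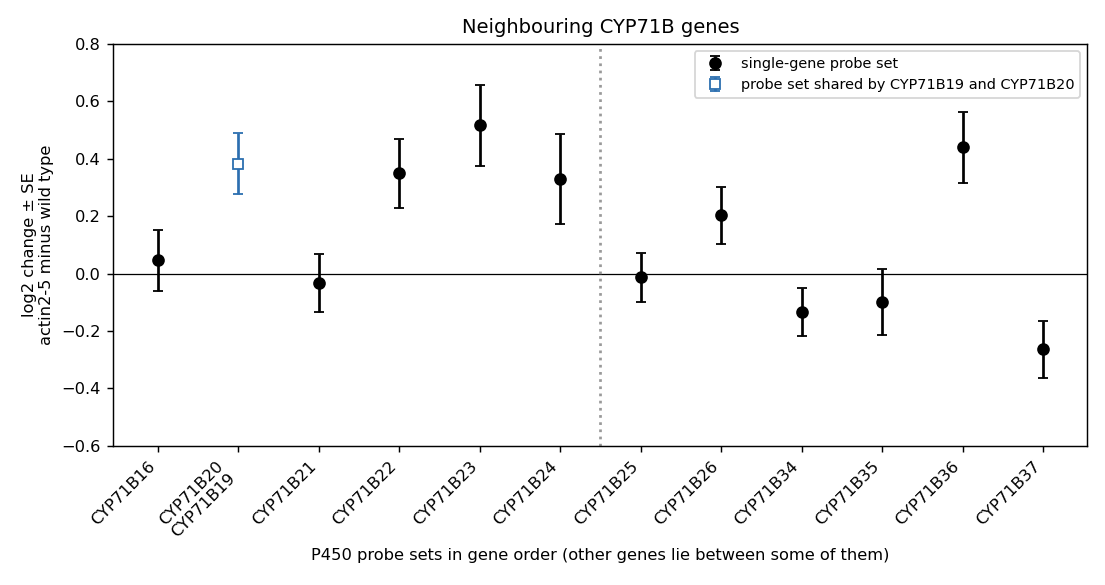
Log2 change ± SE, actin2-5 minus wild type, of the 11 members in 2 runs of neighbouring CYP71B genes in gene order, split by the dotted line, with the probe set shared by CYP71B19 and CYP71B20 as an open square. CYP71B22, CYP71B23 and CYP71B24 lie between 0.33 and 0.52, while CYP71B36 and its neighbour CYP71B37 lie at 0.44 and -0.26.

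The 3 members from CYP71B27 to CYP71B29 lay near 0. CYP71B28 had a mean of 6.92 ± 0.22 in actin2-5 and of 6.87 ± 0.10 in wild type, and CYP71B29 one of 6.63 ± 0.08 in actin2-5 and of 6.64 ± 0.06 in wild type (SD, n = 3 each). CYP71B27, which RefSeq lists as a transcribed pseudogene, was dim and at -0.08 ± 0.09. In the run around CYP71B30P, CYP71B5 had a mean of 7.18 ± 0.05 in actin2-5 and of 7.24 ± 0.32 in wild type, at -0.05 ± 0.14. CYP71B30P, named as a pseudogene but listed as protein-coding in RefSeq, was among the dimmest members, with means of 3.67 in actin2-5 and 3.69 in wild type. CYP71B31, which in flowers takes part in oxidising the monoterpene alcohol linalool, was as dim, with means of 3.60 in actin2-5 and 3.67 in wild type. CYP71B38, which lies apart from these runs, was at -0.18 ± 0.10 (limma adjusted p = 0.47), dim and with overlapping groups, and at -0.07 without wild-type replicate 2.

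None of the 5 families with 1 member each held a called gene, with limma's smallest unadjusted p among them at 0.171. CYP78A9, of a family that promotes organ and seed growth, read 5.73, 6 and 5.87 in actin2-5, against 5.92, 6.39 and 5.89 in wild type, at -0.20 ± 0.14 (SE, n = 3 each; limma adjusted p = 0.547). Wild-type replicate 2 was the high value, and without it CYP78A9 was at -0.038. The groups overlapped. CYP84A4, a relative of the lignin enzyme ferulate 5-hydroxylase that works in arabidopyrone synthesis, read 6.09, 6.02 and 6.04 in actin2-5, against 5.87, 6.52 and 5.75 in wild type. Its means were 6.05 in both groups, while the SD was 0.04 in actin2-5 and 0.41 in wild type (n = 3 each). The dim CYP79A2, which turns phenylalanine into its oxime on the way to benzylglucosinolate, was at -0.08 ± 0.12. CYP51G2, a relative of the sterol demethylase of this family and also a transcribed pseudogene in RefSeq, was at -0.01 ± 0.09, and CYP718 was at -0.07 ± 0.09.

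Members also differed in signal. Of the 24 members, 14 had a mean of at least 5 and 10 had a lower one, between 3.64 and 4.89, where changes ran from -0.18 to 0.05. The 14 brighter members were split 8 higher and 6 lower by point value, with a median change of 0.027. The members with the highest means were CYP71B6, CYP71B26, CYP71B23, CYP71B5 and CYP71B37, and 0 of these were called.

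**Figure D4:**
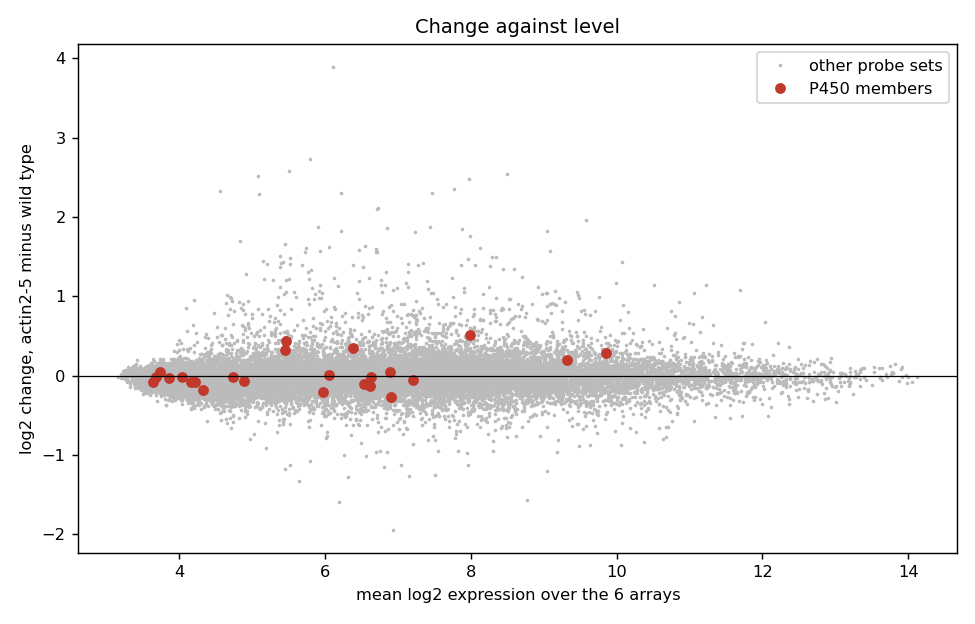
Log2 change, actin2-5 minus wild type, against the mean log2 expression over the 6 arrays for the 24 P450 members (red) and the other tested probe sets (grey). The members lie within the band of the other probe sets, and those with a mean under 5 lie between -0.18 and 0.05.

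Few partners of P450 pathways could be read beside them. A locus was taken as measured where a probe set carries that gene's name alone in the annotation used. Of 116 loci on 14 lists of other genes in pathways that use P450 enzymes, 14 were measured, on 8 lists. The rest may still lie on the array, under probe sets with several gene names or with none. Of the 14, 2 were higher and 1 lower in actin2-5, against 2.18% higher and 1.11% lower of all tested probe sets. The lists were written with earlier results known, and nothing is read from this count. AT3G13610, which makes coumarins secreted under iron shortage, rose by 0.46 ± 0.09 (SE, n = 3 each; limma adjusted p = 0.0196). The other measured genes of its list, BHLH101 and AT3G12900, were at 0.31 ± 0.16 and 0.04 ± 0.09 (limma adjusted p = 0.394 and 0.881), with overlapping groups. LYC, the lycopene cyclase of carotenoid synthesis, fell by 0.44 ± 0.08 on the log2 scale (limma adjusted p = 0.0165), with 9.25, 9.29 and 9.22 in actin2-5, against 9.68, 9.79 and 9.62 in wild type. The other called gene was AT5G05600, which removes jasmonate and rose by 1.61. On the phenylpropanoid and flavonoid list, DFR was at 0.52 ± 0.17 and HCT at -0.11 ± 0.09 (limma adjusted p = 0.173 and 0.612), with overlapping groups. UGT71B6, on the abscisic acid list, was dim and at 0.31 ± 0.09 without overlap (limma adjusted p = 0.104). Of the glucosinolate genes, UGT74B1, the glucosyltransferase of the core pathway, was at 0.18 ± 0.08 and BCAT4, which starts the methionine-derived branch, at 0.24 ± 0.09 (limma adjusted p = 0.322 and 0.251), both without overlap between the groups, as in 19.2% of all probe sets. The other measured genes of these lists, AT2G31790 and GSTU20, were at -0.11 ± 0.09 and 0.10 ± 0.13, with overlapping groups. AT5G47980 and AT5G47950, genes of the thalianol cluster of root triterpenes, were at -0.53 ± 0.13 and -0.38 ± 0.16 (limma adjusted p = 0.0664 and 0.285). The groups did not overlap for AT5G47980 and overlapped for AT5G47950. AT3G13610 and LYC missed the threshold without any 1 of the actin2-5 replicates (limma adjusted p = 0.0558 to 0.124), and likewise with the array's 25S ribosomal RNA control as a covariate (limma adjusted p = 0.18 for AT3G13610 and 0.147 for LYC). Without wild-type replicate 1 both thalianol cluster genes passed, AT5G47980 at -0.69 and AT5G47950 at -0.59 (limma adjusted p = 0.0092 and 0.0183). Likewise, BHLH101 at 0.52 and DFR at 0.72 passed without wild-type replicate 3 (limma adjusted p = 0.0243 and 0.036). The P450 enzymes of the iron, carotenoid and triterpene routes have no member here.

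Markers of organs were read beside the members. Of the root hair markers 3 of 6 were measured, by the same rule as the partner genes. Their summed log2 levels were 17.21 to 17.44 in actin2-5, against 18.3 to 19.87 in wild type. Of these 3, EXPA18 and EXPA7 fell by 0.95 and 0.86 (limma adjusted p = 0.00636 and 0.00909), and XTH26 was at -0.15 (limma adjusted p = 0.553). For 4 of 8 root markers the sums were 43.53 to 43.9 in actin2-5, against 43.58 to 44.31 in wild type. For 4 of 7 leaf markers they were 52.45 to 52.73 in actin2-5, against 52.59 to 53.14 in wild type. None of these root and leaf markers was called. Root markers went both ways, with NAI2 at -0.27 and PYK10 at 0.09, both without overlap. AT4G30170 and AT5G17820 were at -0.097 and -0.023, with overlapping groups. Of the leaf markers only LHCB4.2, at -0.12, was without overlap. The 25S ribosomal RNA control of the array gave 10.63, 7.75 and 9.82 in actin2-5, against 8.21, 8.13 and 8.20 in wild type. With it as a covariate CYP71B23 was at 0.56 and CYP71B36 at 0.53, and 0 of the 24 members were called. The part of these measures in the members' values was not tested further.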

How the data were processed

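Total RNA of 6 seedling samples was read on Affymetrix ATH1 arrays. The authors deposited log2 expression values per probe set, made with RMA in the affy package, per the submitters' processing notes. No version and no chip definition is given by the labels. The values ran from 3.08 to 14.15. The 64 AFFX control probe sets were left out and 22746 were tested with limma 3.58.1 in R 4.3.3 (lmFit, eBayes), as a two-sided test. P-values were adjusted by the Benjamini-Hochberg method, and 0.05 was the limit for a call. Genes were named through the platform annotation (13513 probe sets with 1 symbol, 503 with several, 8730 with none). All 24 members were found in RefSeq's TAIR10.1 table, used for names and gene order only. The number of arrays limits the precision, with 3 per group, and p-values measure the spread between these samples. No array was a copy of another: at most 3.51% of values were equal between 2 arrays. The members, the lists and the tests were chosen with earlier results of these data known. The text names the called members, the 10 with the smallest p, those with the highest means and members with a known role. It also names all measured genes of the partner lists. Other members are named by their place in the runs, chosen after their values were seen. The test was checked on simulated data. Alternatives were another normalization, centring, 2 filters on low signal, the replicate block, array weights, a robust prior with trend, leaving out single arrays, the 25S value as a covariate, actin2-5 arrays 1 and 3 left out, and stricter thresholds. Sequences of these genes were not used here.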

Additional observations from a re-analysis of the deposited data

Results flagged for a closer look

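The array's 25S ribosomal RNA control, which lies outside the comparison of genes, had a mean of 9.40 ± 1.49 in actin2-5 and of 8.18 ± 0.04 in wild type (SD, n = 3 each), with 2 of 3 actin2-5 arrays above all wild-type arrays and 1 below them.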

How the results depend on the processing

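The number of called P450 probe sets stayed at 0 in all settings except 4. It was 1 (CYP71B36) with array weights and without wild-type replicate 2, 1 (CYP71B23) without wild-type replicate 3, and 2 (both) with the replicate block, all of them higher in actin2-5. Leaving out 1 array gave 0 to 1, and no setting called a member lower. The replicate block rests on a shared number only, and the labels do not pair the arrays. Deviations of same-numbered arrays correlated at 0.062, 0.087 and 0.083, and each array correlated best with its own number in the other group. These correlations are small, and deviations within a group sum to 0 by construction, so no pairing is read from them. In the block CYP71B23 and CYP71B36 had adjusted p = 0.0281 and 0.0343 (limma), and all called probe sets numbered 907, against 750. With array weights the adjusted p of CYP71B36 was 0.0259, and that of the shared probe set CYP71B20;CYP71B19 was 0.034. AT5G47980 passed with array weights (limma adjusted p = 0.044) and in the block (0.0167). AT3G13610 and LYC missed the threshold without actin2-5 arrays 1 and 3 (limma adjusted p = 0.675 and 0.601). Over 15 alternatives, the change of CYP71B23 ran from 0.40 to 0.69 and its adjusted p from 0.00965 to 0.772; that of CYP71B36 ran from 0.34 to 0.58 and its adjusted p from 0.0153 to 0.612. All called probe sets numbered 283 with the 25S covariate, 103 without actin2-5 arrays 1 and 3, 323 at an adjusted p under 0.01, 401 with a 1.5-fold minimum and 290 to 896 with 1 array left out. The stricter thresholds lower the count by construction. Signs of 11 members near 0 turned in some setting. With 1 array left out, CYP71B28 ran from -0.075 to 0.14, CYP71B29 from -0.063 to 0.017, CYP51G2 from -0.08 to 0.045, CYP71B16 from -0.053 to 0.10, CYP71B21 from -0.11 to 0.072, CYP71B25 from -0.05 to 0.027, CYP71B5 from -0.17 to 0.13, CYP71B30P from -0.038 to 0.0033, CYP84A4 from -0.14 to 0.24 and CYP79A2 from -0.15 to 0.05. Repeated quantile normalization gave 0.042 for CYP51G2, 0.0044 for CYP71B21, 0.036 for CYP71B25 and 0.0072 for CYP71B30P. Array weights gave 0.017 for CYP71B25 and 0.0038 for CYP71B5, and centring gave -0.01 for CYP84A4. The 25S covariate gave 0.0031 for CYP51G2, 0.039 for CYP71B21, 0.047 for CYP71B25, -0.013 for CYP84A4 and 0.011 for CYP79A2. Without actin2-5 arrays 1 and 3, where the 1 remaining actin2-5 array is taken to have the wild-type spread, CYP71B27 was at 0.017, CYP51G2 at 0.01, CYP71B21 at 0.12, CYP71B25 at 0.06, CYP84A4 at -0.027 and CYP79A2 at 0.043. Causes were not tested. Dim signals, with 10 members under a mean of 5, limit what could be seen.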
